A study of Mus musculus with 9 samples.

Results

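The transcripts described here are those of 7 genes that encode immune checkpoint ligands or proteins that act with them on the surface of tumour cells: Cd274, Cmtm6, Cd276, Cd47, Pvr, Lgals9 and Nt5e. They were taken by gene symbol from a table of 16509 genes, in which all 7 were found. The rule itself uses no measured value, but the 7 genes were chosen with earlier results of these data known. All 7 were also among the 11949 genes with enough reads to be tested.

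The table comes from RNA sequencing of MC38 cells, an established mouse colon carcinoma line, in 9 libraries. Of these, 3 were from control cells (Ctrl), 3 from cells given Cu-Cys, a combination of copper chloride and cystine, and 3 from cells given Cadict, a nanodrug in which copper and cystine are joined with the enzyme glucose oxidase and with GE11, a peptide that binds the EGF receptor. The control treatment is DMSO in the sample labels and PBS in the text of the study, and no dose or time is given for these libraries. The study describes the replicates in its legends as biological and its cell experiments as repeated independently, while the sample labels do not name separate cultures for the 3 libraries of a group. In the deposited table the columns of the nanodrug carry the abbreviation CCGE, which was read as Cadict from its components.

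Checkpoint ligands hold back immune cells that touch a tumour cell. PD-L1, the product of Cd274, binds PD-1 on T cells, and CMTM6, the product of Cmtm6, protects PD-L1 from degradation. B7-H3 (Cd276) is a relative of PD-L1, CD47 (Cd47) gives macrophages a signal not to engulf the cell through SIRPα, and the poliovirus receptor CD155 (Pvr) binds TIGIT and CD96. Galectin-9 (Lgals9) is a sugar-binding protein with TIM-3 among its reported receptors, and CD73 (Nt5e) is an enzyme that makes adenosine, which dampens T cells. In many tumour cells interferon-γ raises Cd274 transcription through JAK kinases and IRF1.

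RefSeq promoter sequences (GRCm38.p6, 250 bases before to 50 bases after an annotated start) were found for 6 of the 7 genes, Pvr being the exception. The sequences of Cd274, Cd276 and Nt5e are shown because these transcripts fell after Cadict under every scale tried, and that of Lgals9 because it held the matches to the interferon-stimulated response element. Capitals mark the motif matches described after them, and each sequence is read 5′ to 3′ on the strand of its gene.
Cd274, chr19:29367188-29367487, plus strand: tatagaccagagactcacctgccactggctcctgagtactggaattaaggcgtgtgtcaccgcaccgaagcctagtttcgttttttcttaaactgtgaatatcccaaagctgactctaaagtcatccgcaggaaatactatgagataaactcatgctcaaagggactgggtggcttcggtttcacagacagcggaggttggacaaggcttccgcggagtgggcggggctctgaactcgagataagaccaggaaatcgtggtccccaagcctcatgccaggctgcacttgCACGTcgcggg
Cd276, chr9:58554984-58555283, minus strand: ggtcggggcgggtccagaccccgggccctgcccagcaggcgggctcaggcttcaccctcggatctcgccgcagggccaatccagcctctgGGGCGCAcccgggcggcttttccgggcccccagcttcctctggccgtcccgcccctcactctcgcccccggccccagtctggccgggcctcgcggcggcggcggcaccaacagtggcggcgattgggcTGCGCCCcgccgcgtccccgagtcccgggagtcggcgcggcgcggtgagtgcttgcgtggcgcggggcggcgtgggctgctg
Nt5e, chr9:88327359-88327658, plus strand: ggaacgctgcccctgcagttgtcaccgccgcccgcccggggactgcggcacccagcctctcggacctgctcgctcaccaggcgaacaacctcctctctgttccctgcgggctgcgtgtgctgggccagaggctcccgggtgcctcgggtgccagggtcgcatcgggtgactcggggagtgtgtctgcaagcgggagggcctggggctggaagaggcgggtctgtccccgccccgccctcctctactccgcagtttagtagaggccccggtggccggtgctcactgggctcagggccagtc
Lgals9, chr11:78984875-78985174, minus strand: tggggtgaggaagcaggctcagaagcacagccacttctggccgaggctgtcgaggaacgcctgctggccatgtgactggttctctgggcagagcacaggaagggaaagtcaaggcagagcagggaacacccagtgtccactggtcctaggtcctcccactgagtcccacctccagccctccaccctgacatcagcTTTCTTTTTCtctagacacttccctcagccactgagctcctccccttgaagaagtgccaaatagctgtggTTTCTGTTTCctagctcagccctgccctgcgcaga

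Both strands were searched for 8 motifs, written here with N for any base. In the Cd274 window only the hypoxia response element core (ACGTG) matched, at position 40 downstream of the start, and 19.6% of 32851 RefSeq mouse promoters held that core. Neither the interferon-stimulated response element (GAAA, any 2 bases, then GAAA, in 3.44% of promoters) nor the interferon-γ activated site (TTCNNNGAA, in 8.3%) matched there. The Lgals9 window held the first of these 2 motifs at positions -55 and 16, both on the opposite strand. The Cd276 window held the metal response element (TGCACNC or TGCGCNC, in 25.7% of promoters) at positions -160 and -32. The Cd47 windows, of 2 annotated starts, held metal response elements and the hypoxia core, the Cmtm6 window held an antioxidant response element (TGACNNNGC, in 12.4%) at position -80, and the Nt5e window held no match. The AP-1 site (TGANTCA, in 7.81%), the heat shock element (GAA, any 2 bases, TTC, any 2 bases, then GAA, in 0.603%) and the C/EBP-ATF element (TGATGNAA, in 3.97%) matched in none of the windows. A match says only that the letters are present. The lack of a match says only that these exact letters are absent from the window, and looser or more distant sites were not searched. GC content was 78.3% in the Cd276 window, 71.0% in the Nt5e window and 52.7% in the Cd274 window, which was also the median over all promoters.

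Between 17905769 and 18293060 counts were assigned per library. The 100 genes with the most counts took 29.8% to 31.1% of the counts in Cadict libraries, against 17.2% to 17.4% in Ctrl and 17.9% to 18.2% in Cu-Cys libraries. The TMM method, which sets libraries to a common scale by the typical gene rather than by the total, gave factors of 0.640 to 0.665 to Cadict libraries and 1.21 to 1.27 to the others. Values in CPM (counts per 1000000 counts of the library) are on this TMM scale unless another scale is named. In bulk RNA a loss of cells and a loss of RNA per cell cannot be told apart.

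Markers of other cells were read in the same libraries. Of 14 leukocyte markers, 8 were in the table and none had enough reads to be tested. Their summed count was 9 to 18 per library, and Ptprc (CD45) had 1 to 4 counts. Of the epithelial markers, Epcam had 0 counts in every Ctrl and Cu-Cys library and 4, 0 and 0 in Cadict libraries, whereas Cdh1 (E-cadherin) had 99 to 120 counts in Ctrl libraries.

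Compared per length, the 7 transcripts covered a wide range of levels in control cells. In TPM, a deposited level that takes transcript length and library size into account, Lgals9 was the most abundant at 188 ± 5.57 (SD, n = 3, as for all values given with ±), followed by Cd47 at 77.3 ± 3.8 and Pvr at 67.6 ± 4.36. Cmtm6 at 15.5 ± 1.01 TPM and Cd276 at 11.98 ± 0.132 TPM lay in the middle. The lowest were Cd274 at 1.90 ± 0.182 TPM and Nt5e at 1.48 ± 0.0872 TPM. No 2 neighbours in this order overlapped in Ctrl libraries, although Cd274 and Nt5e differed only 1.29-fold. Of the genes listed, 35.1% had a lower mean TPM than Cd274 in Ctrl cells. Pvr stood above Cd47 in Cu-Cys libraries, at 94.3 ± 1.97 against 51.0 ± 3.39 TPM, and in Cadict libraries, at 52.9 ± 6.01 against 36.3 ± 2.81 TPM. In Cadict libraries Cd274, at 0.243 ± 0.0709 TPM, and Nt5e, at 0.160 ± 0.0361 TPM, overlapped, and no other neighbours did in any group.

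Cadict against Ctrl asks what the nanodrug changes in these transcripts. Cd274, Cd276 and Nt5e fell, and the other 4 transcripts rose by less than 2-fold on the TMM scale but not under library totals. A change is said here to rise or fall at an adjusted p of at most 0.05 in the quasi-likelihood test of edgeR, adjusted by the Benjamini-Hochberg method across the 11949 genes tested (edgeR adjusted p). It is said to be called at the threshold named by the study, a change of at least 2-fold and an adjusted p of at most 0.001. Of the 7 transcripts 3 were called, all lower, beside 47.8% of all genes that were called, 27.1% lower and 20.7% higher. All 7 passed the edgeR adjusted p of 0.05, as did 87.7% of all genes.

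**Figure D1:**
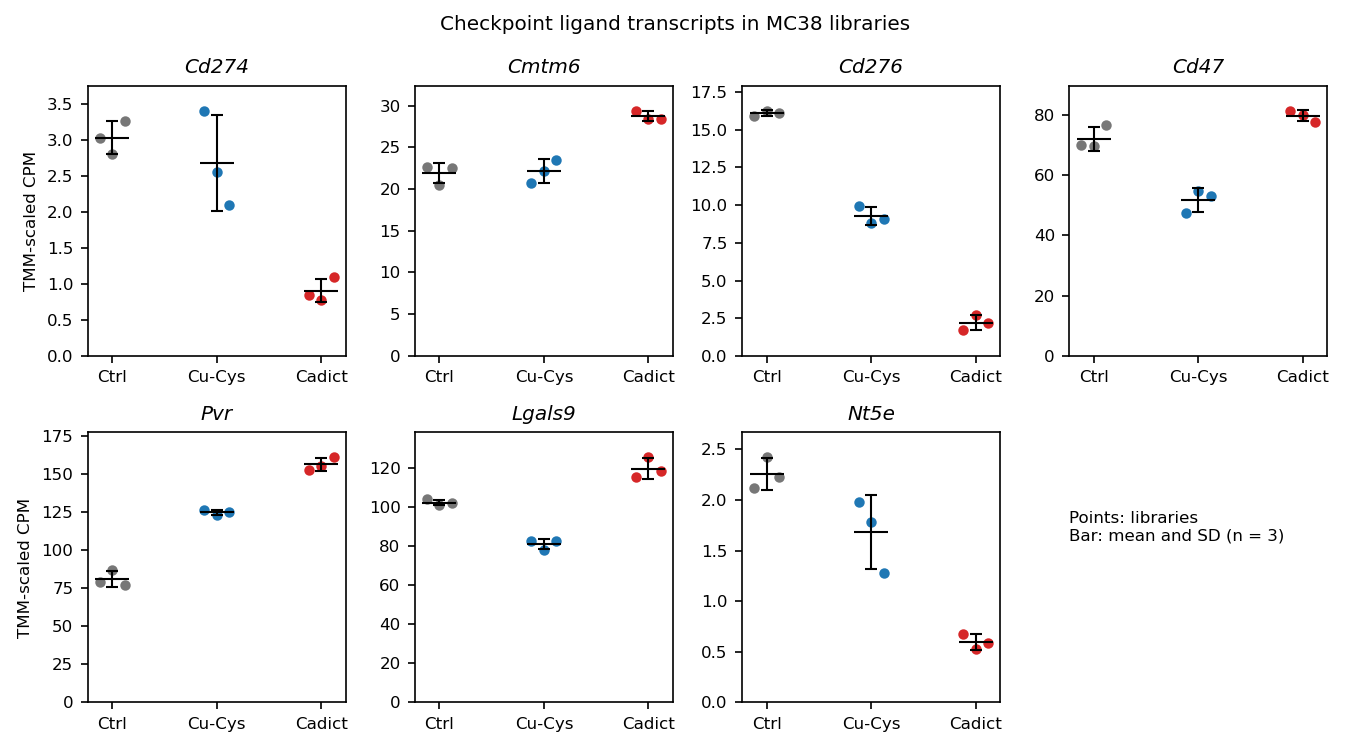
Levels of the 7 transcripts in each library, in TMM-scaled CPM on axes that start at 0. Points are libraries, and the bars give the mean and SD of the 3 libraries of a group. Cd274, Cd276 and Nt5e were lowest in all 3 Cadict libraries, while the higher Cadict levels of Cmtm6, Cd47, Pvr and Lgals9 hold on this scale and on that of DESeq2 size factors but not on library totals.

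Cd274, which encodes PD-L1, had 70, 65 and 75 counts in the Ctrl libraries, 74, 56 and 46 in the Cu-Cys libraries and 10, 9 and 13 in the Cadict libraries. On the TMM scale these were 3.03, 2.81 and 3.27 CPM in Ctrl, 3.41, 2.56 and 2.1 CPM in Cu-Cys and 0.850, 0.784 and 1.09 CPM in Cadict cells. Every Cadict library lay below every Ctrl and every Cu-Cys library, while Ctrl and Cu-Cys libraries overlapped. The same held of 47.3% of all genes for Cadict below Ctrl. Against Ctrl the log2 fold change was -1.73 (SE 0.26, 95% interval -2.29 to -1.18), a fall of 3.32-fold with an edgeR adjusted p of 1.31e-05. Of all genes tested, 14.9% had a lower log2 fold change. The Cadict level rests on 32 counts over the 3 libraries, for which counting error alone allows 21.9 to 45.2 (exact Poisson).

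Cd276, which encodes B7-H3, fell further. It had 368, 376 and 370 counts in Ctrl, 215, 193 and 199 in Cu-Cys and 20, 31 and 26 in Cadict libraries. In CPM these were 15.9 to 16.3, then 8.83 to 9.92, then 1.70 to 2.70. The 3 groups stood apart without overlap, Ctrl highest and Cadict lowest. The log2 fold change of Cadict against Ctrl was -2.87 (SE 0.13), a fall of 7.33-fold with an edgeR adjusted p of 7.51e-12, and 4.59% of all genes had a lower value.

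Nt5e, which encodes the adenosine-producing enzyme CD73, had 49, 56 and 51 counts in Ctrl, 43, 39 and 28 in Cu-Cys and 8, 6 and 7 in Cadict libraries. In CPM the Ctrl libraries lay at 2.12 to 2.42, the Cu-Cys libraries at 1.28 to 1.98 and the Cadict libraries at 0.523 to 0.680. The groups again did not overlap. The log2 fold change of Cadict against Ctrl was -1.91 (SE 0.28, edgeR adjusted p = 9.37e-06), a fall of 3.75-fold at low counts, with 21 counts in all in the Cadict libraries.

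Pvr, which encodes CD155, changed most among the other 4 transcripts. It had 1830, 2011 and 1769 counts in Ctrl, 2741, 2694 and 2744 in Cu-Cys and 1795, 1780 and 1919 in Cadict libraries, so its raw counts were alike in Ctrl and Cadict cells. On the TMM scale it was at 77.1 to 87.1 CPM in Ctrl, 123 to 126 CPM in Cu-Cys and 153 to 161 CPM in Cadict libraries, with no overlap between groups, as for 40.3% of all genes for Cadict above Ctrl. The log2 fold change of Cadict against Ctrl was 0.95 (SE 0.05, edgeR adjusted p = 1.19e-10) on the TMM scale but -0.01 under library totals, where the adjusted p did not pass, and -0.48 with Gapdh as the scale. Under DESeq2 size factors it was 1.07 (edgeR adjusted p = 2.21e-11), past the 2-fold threshold, so that Pvr was called higher there and 4 of the 7 were called.

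Cmtm6, the PD-L1 stabiliser, had 473 to 522 counts in Ctrl and 326 to 346 in Cadict libraries. These were 20.5 to 22.6 and 28.4 to 29.4 CPM, a log2 fold change of 0.39 (SE 0.07, edgeR adjusted p = 1.01e-04) on the TMM scale and of -0.56 under library totals. The direction of the Cmtm6 change was therefore set by the scale.

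The same was true of the macrophage signal Cd47 and of Lgals9. Lgals9 had 2403, 2338 and 2338 counts in Ctrl and 1358, 1442 and 1409 in Cadict libraries, with a log2 fold change of 0.23 (SE 0.05, edgeR adjusted p = 6.14e-04) on the TMM scale and of -0.73 under library totals. Cd47 had 1615, 1609 and 1754 counts in Ctrl and 958, 918 and 925 in Cadict libraries, with a log2 fold change of 0.15 (SE 0.06, edgeR adjusted p = 0.0399) on the TMM scale and of -0.81 under library totals. The small TMM difference of Cd47 no longer passed when Ctrl library 1 (edgeR adjusted p = 0.147), Ctrl library 2 (0.154), Cu-Cys library 3 (0.0619) or Cadict library 1 (0.111) was left out, nor with a minimum of 10 counts in every library (0.216) or no filter on low counts (0.374).

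**Figure D2:**
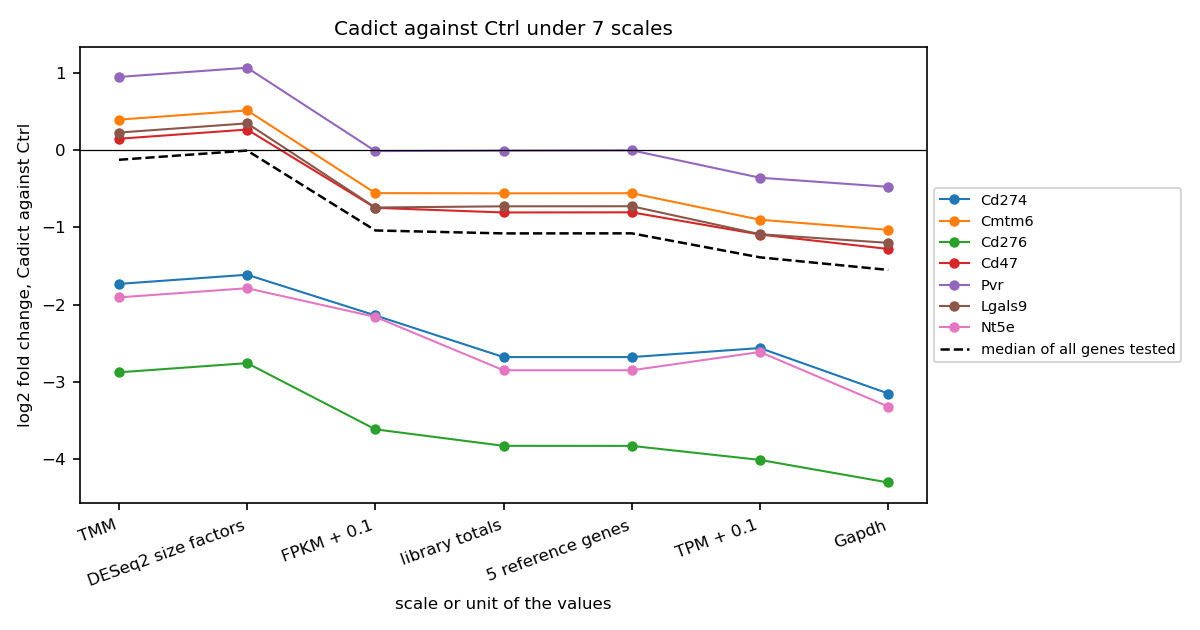
Log2 fold change of Cadict against Ctrl (y axis) for each of the 7 transcripts under 7 scales or units (x axis), with the median of all genes tested as a dashed line. Cd274, Cd276 and Nt5e stayed below 0 and below the median at each of these scales (TPM and FPKM with a pseudocount of 0.1; at a pseudocount of 1 Nt5e lay above the median in both), and Cmtm6, Cd47, Pvr and Lgals9 lay above 0 under TMM and DESeq2 size factors and below 0 under the other 5, but above the median throughout.

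The scale moves all genes together. The median log2 fold change of all genes in Cadict against Ctrl was -0.13 under TMM, -1.08 under library totals and -1.55 with Gapdh, so library totals shifted it by -0.95 and Gapdh by -1.42. Under library totals 0 of the 7 transcripts rose and 6 fell, beside 18.1% of all genes that rose and 73.1% that fell. Under TMM 4 rose and 3 fell, beside 40.6% and 47.1% of all genes. Relative to the median gene, Cd274, Cd276 and Nt5e were lower and the other 4 were higher under both.

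Reference genes used for PCR differed from each other after Cadict, and of them only Gapdh was set in a ratio with Cd274 here. On the TMM scale Gapdh had a log2 fold change of 1.43 (edgeR adjusted p = 3.11e-12), Hprt of 1.76 and Ppia of 1.52, while Actb had -0.02 (edgeR adjusted p = 0.803) and Tbp 0.09 (0.185). As a ratio of counts within each library, which needs no scale, Cd274 over Gapdh had a mean log2 of -9.79 ± 0.145 in Ctrl, -10.3 ± 0.339 in Cu-Cys and -13.0 ± 0.357 in Cadict libraries. Part of the transcript sequence of Gapdh (25.1% of its 50-base stretches) also occurs in other annotated genes. The share was 17.3% for Ppia, 16.3% for Tbp, 9.12% for Actb and 0 for Hprt.

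Ratios among the 7 transcripts in the same library were likewise free of the scale. Cd274 over Cmtm6 had a mean log2 of -2.85 ± 0.0580 in Ctrl, -3.07 ± 0.445 in Cu-Cys and -5.00 ± 0.259 in Cadict libraries, so that PD-L1 transcripts were lower in relation to those of its stabiliser in every Cadict library. Cd276 over Cd47 was -2.16 ± 0.0769 in Ctrl and -5.21 ± 0.350 in Cadict libraries. Pvr over Cd47 was 0.17 ± 0.155 in Ctrl, 1.28 ± 0.126 in Cu-Cys and 0.97 ± 0.0748 in Cadict libraries. The ratio of Lgals9 to Cd47 stayed nearly level, at 0.51 ± 0.0835 in Ctrl, 0.65 ± 0.143 in Cu-Cys and 0.59 ± 0.0760 in Cadict libraries, with overlap between all 3 groups. These ratios are descriptions and were not tested.

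Cu-Cys against Ctrl asks what copper and cystine change without the enzyme and the peptide. Of the 7 transcripts Pvr rose, Cd276, Cd47 and Lgals9 fell, and Cd274, Cmtm6 and Nt5e did not pass the edgeR adjusted p of 0.05. None was called, beside 1.64% of all genes, and 4 passed the edgeR adjusted p of 0.05, beside 45.0% of all genes (22.6% that rose and 22.4% that fell). Without adjustment, 5 of the 7 had an edgeR p under 0.05, Nt5e being the fifth, and with DESeq2's Wald test 0 of the 7 were called.

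Cd276 had a log2 fold change of -0.80 (SE 0.09, edgeR adjusted p = 4.56e-06), a fall of 1.74-fold, and 4.59% of all genes had a lower value, the same share as in Cadict against Ctrl. Cd47 had -0.48 (SE 0.06, edgeR adjusted p = 2.80e-05), with 47.4 to 54.6 CPM in Cu-Cys against 69.7 to 76.5 CPM in Ctrl libraries. Lgals9 had -0.34 (SE 0.05, edgeR adjusted p = 9.41e-05), with 78.2 to 82.6 against 101 to 104 CPM. For each of these 3 transcripts the Cu-Cys libraries lay below the Ctrl libraries without overlap, and 61.2% of all genes did not overlap in either direction.

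Pvr rose 1.54-fold after Cu-Cys, a log2 fold change of 0.62 (SE 0.05, edgeR adjusted p = 5.74e-07), and 97.3% of all genes had a lower value. The direction of these 4 changes was the same under every scale tried. Cd274 had a log2 fold change of -0.18 (SE 0.17, 95% interval -0.55 to 0.20, edgeR adjusted p = 0.439), so a fall of up to 0.55 or a rise of up to 0.20 on the log2 scale lies within the interval. With Gapdh as the scale Cd274 was at -0.50 with an adjusted p of 0.0257. Cmtm6 had 0.02 (95% interval -0.13 to 0.17) on the TMM scale and -0.05 under library totals, with no pass in either. With Gapdh as the scale Cmtm6 was at -0.31 and passed as lower. Nt5e had -0.42 (SE 0.19, 95% interval -0.82 to -0.03, edgeR adjusted p = 0.0763). It passed in 5 of 11 alternatives that kept all libraries, among them library totals (-0.49, edgeR adjusted p = 0.0434), Gapdh and the 5 reference genes. Nt5e also passed without Cu-Cys library 1 (-0.56, edgeR adjusted p = 0.0484).

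**Figure D3:**
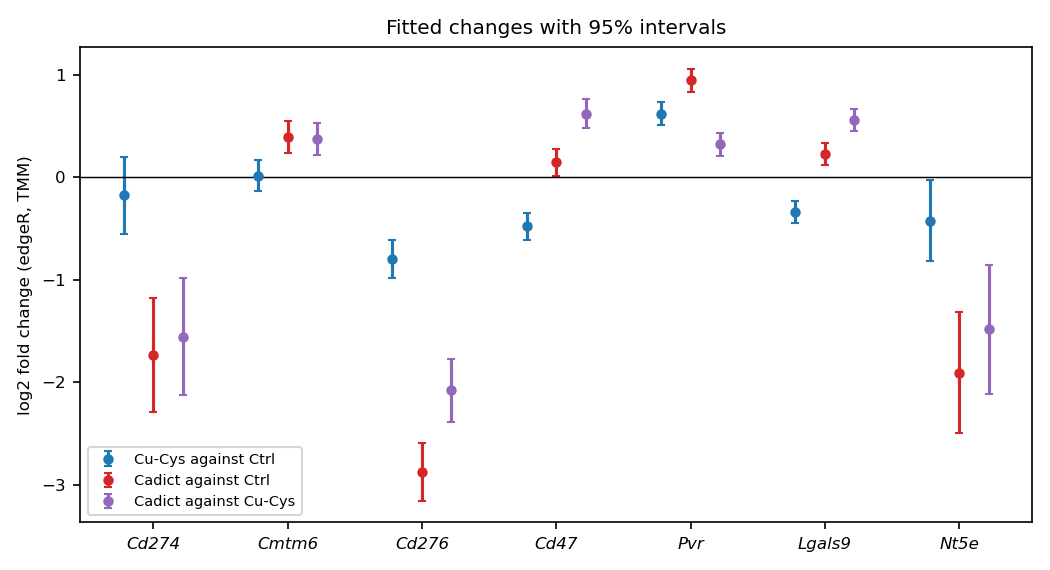
Log2 fold change (y axis, edgeR on the TMM scale) of each of the 7 transcripts in 3 comparisons, with 95% intervals. After Cadict, Cd276 is lowest at -2.87, and the positive values of Cmtm6, Cd47, Pvr and Lgals9 in the Cadict comparisons turn negative under library totals.

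Cadict against Cu-Cys compares the nanodrug with its copper and cystine alone. Cd274 was lower by a log2 fold change of -1.56 (SE 0.27, 95% interval -2.13 to -0.99, edgeR adjusted p = 5.64e-05), Cd276 by -2.08 (SE 0.14, edgeR adjusted p = 1.40e-09) and Nt5e by -1.48 (SE 0.30, edgeR adjusted p = 2.32e-04). These 3 were called lower, beside 23.6% of all genes, and Cadict and Cu-Cys libraries did not overlap for any of the 7, beside 85.0% of all genes. The call of Nt5e at an adjusted p of 0.001 was lost without Cu-Cys library 1 or 2 or Cadict library 2 or 3, where 2 of the 7 stayed called and the highest adjusted p of Nt5e was 0.00127. On the TMM scale Cd47 had 0.62, Lgals9 0.56, Cmtm6 0.38 and Pvr 0.32, each past the edgeR adjusted p of 0.05 as were 85.9% of all genes, but under library totals they had -0.26, -0.32, -0.51 and -0.56. Both comparisons of Cadict use the same Cadict libraries, so their values are not independent.

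**Figure D4:**
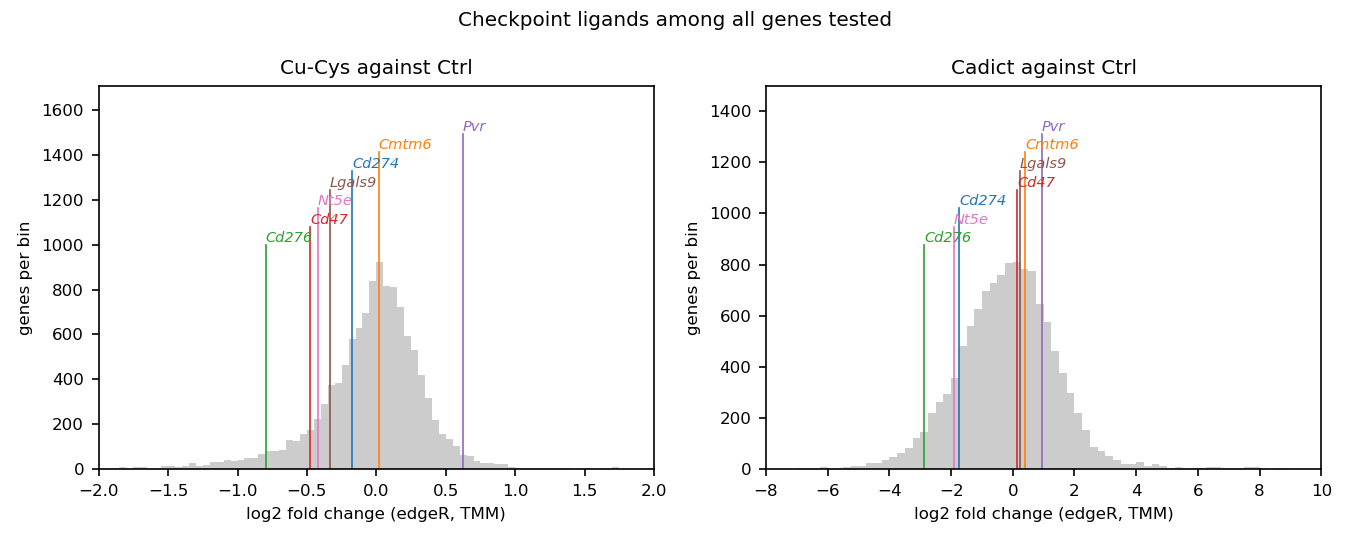
Distribution of log2 fold changes (x axis, edgeR on the TMM scale) over 11949 genes, as genes per bin (y axis), with a line for each of the 7 transcripts, in Cu-Cys against Ctrl and Cadict against Ctrl. The left panel leaves out 42 genes and the right panel 8 genes beyond its axis, and Cd276 lies in the lower tail of both, with 4.59% of genes below it in each.

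Genes around the 7 transcripts were read from lists written from general knowledge. The counts of these lists in Cadict against Ctrl stand beside 40.6% of all genes that rose and 47.1% that fell on the TMM scale, and 18.1% and 73.1% under library totals. Receptors of these ligands are usually studied on immune cells. Of 11 receptor genes, 8 were in the table and 3 were tested. Havcr2, the TIM-3 gene, had 57, 56 and 62 counts in Ctrl, 144, 130 and 148 in Cu-Cys and 537, 505 and 584 in Cadict libraries, with no overlap between groups. Its log2 fold change was 4.19 (SE 0.09, edgeR adjusted p = 2.33e-15) after Cadict and 1.35 (SE 0.12, edgeR adjusted p = 6.07e-07) after Cu-Cys. Tigit had 118 to 136 counts in Ctrl and 239 to 268 in Cadict libraries, a log2 fold change of 2.03 (edgeR adjusted p = 1.10e-10). Sirpa, which encodes the CD47 receptor SIRPα, fell from 2109 to 2154 counts in Ctrl to 330 to 412 in Cadict libraries, with -1.56 (edgeR adjusted p = 1.38e-11). The directions of these 3 after Cadict held in all 22 settings run. The leukocyte markers read in the same libraries summed to 11 to 18 counts in Ctrl and 10 to 14 in Cadict libraries, with overlap. On the TMM scale, whose factors are lower for Cadict libraries, these sums were 0.476 to 0.779 CPM in Ctrl and 0.850 to 1.22 CPM in Cadict libraries. There the sums did not overlap, as for 40.3% of all genes tested for Cadict above Ctrl. The part of the leukocyte markers in the receptor changes was not tested. Ctla4, Cd28 and Btla had at most 1 count in any library.

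Of 32 other checkpoint and costimulatory genes, 28 were in the table and 15 were tested, and 6 rose and 7 fell after Cadict, with a median log2 fold change of -0.10 beside -0.13 for all genes. Under library totals 4 rose and 10 fell. Ptgs2, which encodes the prostaglandin enzyme COX-2, had 4.85 (edgeR adjusted p = 1.19e-15), the galectin genes Lgals3 and Lgals1 had 2.02 and 1.66, and Tnfrsf14, the gene of the herpesvirus entry mediator, had -3.31 (edgeR adjusted p = 1.09e-11). Each of these 4 kept its direction in all 22 settings. Pdcd1lg2, which encodes PD-L2, the second PD-1 ligand, was at 0 in every Ctrl and Cu-Cys library and at 0.0840 to 0.170 CPM in Cadict libraries, where 3 counts were worth 0.252 to 0.261 CPM, and was not tested.

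**Figure D5:**
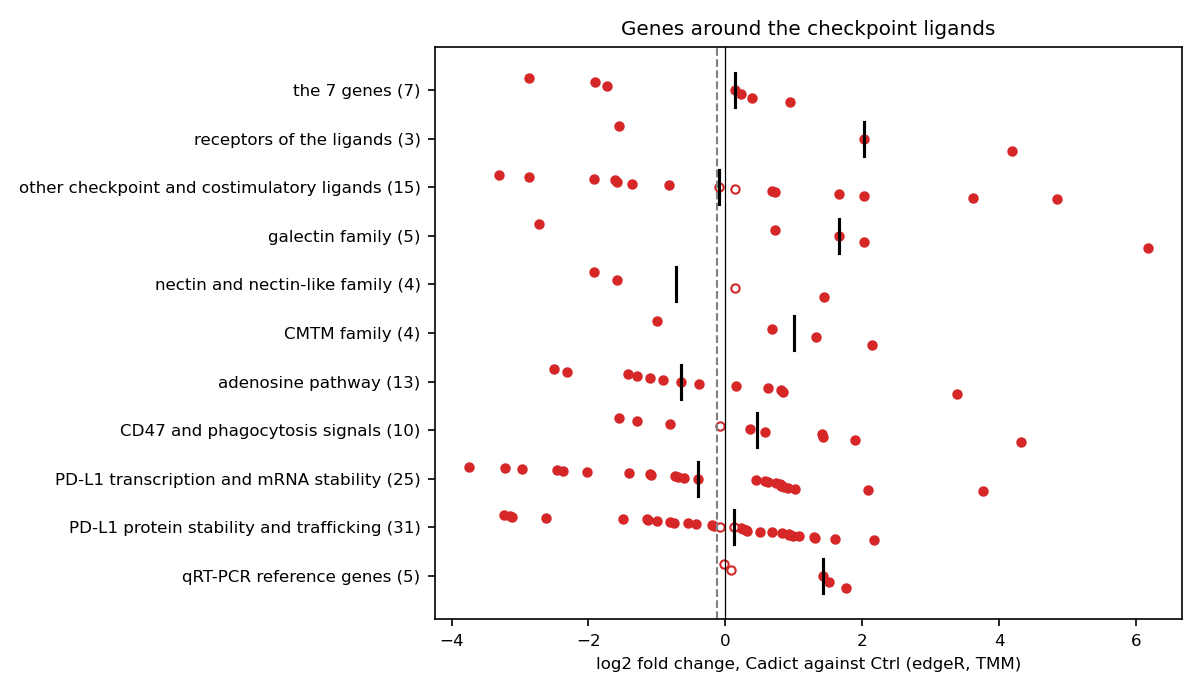
Log2 fold change of Cadict against Ctrl (x axis, edgeR on the TMM scale) for each tested gene of 11 lists, with the number tested in brackets. Filled points passed an edgeR adjusted p of 0.05, open points did not, black bars are list medians and the grey dashed line is the median of all genes, -0.13. Every list drawn holds points on both sides of 0, and under library totals the counts that rose and fell differ in each list but that of the receptors.

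In the list of the galectin family 4 of 5 tested genes rose and 1 fell on the TMM scale (3 and 2 under library totals). The 4 that rose encode galectins, of which Lgals8 had 0.72 on the TMM scale and -0.23 under library totals, and the gene that fell was Lgals3bp, which encodes a galectin-binding protein, at -2.73. Among the nectins, relatives of CD155, Nectin1 had -1.91 and Nectin3 -1.58, while Nectin2, another TIGIT ligand, had 0.14 with an edgeR adjusted p of 0.0623. In the CMTM family 3 of 4 rose and 1 fell on the TMM scale (2 and 2 under library totals). Cmtm3 had 2.14, and Cmtm4, the relative of CMTM6 that also stabilises PD-L1, had -0.996 (edgeR adjusted p = 7.18e-11).

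Of 26 genes tied to PD-L1 transcription or mRNA stability, 25 were tested, and 12 rose and 13 fell after Cadict on the TMM scale (2 and 17 under library totals), with 3 called higher and 9 called lower, beside 20.7% and 27.1% of all genes. Irf1, a transcription factor gene induced by interferon-γ, had a log2 fold change of -3.74 (SE 0.11, edgeR adjusted p = 5.83e-14), the receptor genes Ifngr1 and Ifngr2 had -2.37 and -1.10, and the kinase genes Jak1 and Jak2 had -0.74 and -0.70. Other genes of the list rose on the TMM scale, of which Fos, Jun, Irf2 and Ptpn2 are named here after their values were seen. Fos had 3.77, from 0.853 CPM in Ctrl to 11.7 CPM in Cadict cells, and Jun had 1.02, from 156 to 317 CPM. The rises of Irf2 at 0.81 and Ptpn2 at 0.63 are smaller than the shift that library totals give to all genes. Irf1, Ifngr1, Ifngr2, Jak1 and Jak2 also fell after Cu-Cys, with Irf1 at -0.54 (edgeR adjusted p = 2.79e-05), where Cd274 did not pass. Zfp36, which encodes an RNA-binding protein that destabilises AU-rich transcripts, rose by 2.08 (edgeR adjusted p = 5.11e-10), from 8.85 to 37.5 CPM. Of its relatives in the list, named after their values were seen, Zfp36l1 had 0.79 on the TMM scale. Zfp36l2, the most abundant of them, had -2.02 (edgeR adjusted p = 4.66e-14), from 531 CPM in Ctrl to 131 CPM in Cadict cells. Zfp36 and the same 5 genes kept their direction after Cadict in all 22 settings.

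Of 31 genes tied to PD-L1 protein stability, sugar chains or trafficking, all were tested, and 15 rose and 14 fell on the TMM scale (4 and 22 under library totals). Ccnd1, which encodes cyclin D1, a partner of CDK4, had -3.24, B3gnt3, a glycosyltransferase gene, had -3.11 and Rab11a, which encodes a recycling GTPase, had 2.17, all with edgeR adjusted p of at most 1.76e-14. Usp22, which encodes a deubiquitinase, had -0.62 after Cu-Cys (edgeR adjusted p = 1.20e-06) and -1.13 after Cadict.

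Among CD47 and phagocytosis genes 6 of 10 tested rose and 3 fell on the TMM scale (4 and 6 under library totals). B2m, which encodes β2-microglobulin, had 1.89 (edgeR adjusted p = 6.17e-14), and Calr, which encodes the engulfment signal calreticulin, had -0.07 (edgeR adjusted p = 0.158). Over the 22 settings B2m ran from 0.47 to 2.01 and Calr from -1.50 to 0.05, so the small value of Calr depends on the scale. Of 13 tested genes around adenosine, 5 rose and 8 fell on the TMM scale (1 and 11 under library totals). P2rx7, an ATP receptor gene, had 3.38 (edgeR adjusted p = 3.11e-16), whereas P2rx4 had -1.42, Entpd5, an ectonucleotidase relative, had -1.10 and Ada, which encodes the enzyme that breaks adenosine down, had -0.91. Entpd2, which encodes an enzyme that removes phosphate from ATP, fell after Cu-Cys, with -0.85 (edgeR adjusted p = 1.84e-06).

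The patterns of the 7 transcripts were also compared with each other and with 8551 well-expressed genes by the distance between centred log2 CPM profiles over the 9 libraries. Cd274 lay nearest to Nt5e among the 7, at a distance of 0.456, and at 2.39 from Cmtm6. Lgals9 and Cd47 were nearest of all at 0.309. Outside the 7, the profiles most like that of Cd274 were those of Zfp629 (0.361), Slc9a5, Bard1, Ticrr and Cog2 (0.393). The nearest to Cd276 was D17H6S56E-5 (0.252), to Nt5e Limk1 (0.313), to Pvr Hmga1 (0.166), to Lgals9 Acadvl (0.0799), to Cd47 Prss23 (0.175) and to Cmtm6 Ccndbp1 (0.153). With 3 groups of 3 libraries such a distance mostly reads the group means.

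The transcript length that the authors' estimates imply, the count divided by the FPKM, hardly moved for the 7 genes. It was 3409 ± 94.8 bases for Cd274 in Ctrl and 3309 ± 30.9 in Cadict libraries, a ratio of 0.971, and the other 6 had ratios between 0.962 (Cd47) and 1.01 (Lgals9). Over 10872 genes the middle 90 percent of these ratios ran from 0.930 to 1.05. Of the 50-base stretches of Cd274 in the GENCODE M21 transcripts, 12.4% also occur in other annotated genes, among them AC119228.1 on its opposite strand, and for Cd276 the share was 9.92%, all with Gm10657 on its opposite strand. The share was 0.722% for Cd47, 0.128% for Nt5e and 0 for Cmtm6, Pvr and Lgals9, although Gm16184 and Gm16251 overlap Pvr on the opposite strand. Whether the counting used strand is not given in the sources used here, so reads of such pairs cannot be told apart.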

How the data were processed

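Per the submitters' processing notes, HISAT2 2.1.0, Bowtie2 2.3.4.3 and RSEM 1.3.1 were used, with GRCm39 and GRCh38.p13 named as builds. The authors deposited 1 table with, per gene and library, an expected count (an RSEM-type estimate, not normalized), an FPKM and a TPM (both scaled by the authors for length and library) and a signal, which is the count that the authors divided by a size factor per library. Expected counts were used here, of which 9.77% were not whole and were rounded. The 12 deposited group averages were left out.

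Genes were filtered by filterByExpr and fitted together in edgeR 4.0.16 (R 4.3.3, TMM, quasi-likelihood test, 3 groups, no covariate), with p-values adjusted over 11949 genes. In a test on simulated data 191 of 200 changed genes passed an adjusted p of 0.05 at any fold among 11875, as did 8 unchanged ones. Only these 200 were changed there, whereas 87.7% of the real genes passed in Cadict against Ctrl. It therefore tests neither the calls nor the choice of scale. Alternatives were DESeq2 1.42.0, limma 3.58.1 on log2 values with pseudocounts of 1 and 0.1, other scales, filters and thresholds, the replicate number as a block and leaving out each library.

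The 7 genes, the lists and the tests were chosen with earlier results of these data known. Named beside the 7 are, per list, up to 4 genes with the largest change after Cadict and up to 2 after Cu-Cys (adjusted p of at most 0.05), at a mean of at least 10 CPM, the 5 reference genes, Irf1, Jak1, Jak2, Ifngr1, Ifngr2, Cmtm4, Pdcd1lg2 and Eif5b, the 5 profiles nearest to Cd274 and 1 for each other gene, and defining markers of other cell types. Results for some genes named by this rule are not reported here. Transcripts were from GENCODE M21 and promoters from RefSeq, both on GRCm38, a build other than the GRCm39 of the notes, so they served for names and sequence only. Intervals on counts cover counting error only.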

Additional observations from a re-analysis of the deposited data

How the results depend on the processing

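Of 435 recomputed values 356 kept their direction and side of the threshold, 6 no longer passed, 7 newly passed and 66 turned direction. Cd274, Cd276 and Nt5e kept their direction in all 3 comparisons under each alternative that gave a value. In Cadict against Ctrl, Cd274 ranged from -3.15 to -0.85 on the log2 scale, Cd276 from -4.30 to -2.44 and Nt5e from -3.32 to -0.75, the smallest coming from limma on FPKM with a pseudocount of 1, which by construction compresses low values. Under the 7 settings that follow, Cmtm6, Cd47, Pvr and Lgals9 turned from higher to lower in both Cadict comparisons. Cmtm6 also turned in Cu-Cys against Ctrl under these 7. In that comparison it did not pass on the TMM scale but passed as lower with Gapdh. Each sentence gives log2 fold changes of Cmtm6, Cd47, Pvr and Lgals9 for Cadict against Ctrl, next those 4 for Cadict against Cu-Cys, and last Cmtm6 for Cu-Cys against Ctrl. The values were -0.56, -0.81, -0.0073 and -0.73, then -0.51, -0.26, -0.56 and -0.32, and -0.050 under library totals. They were -1.03, -1.28, -0.48 and -1.20, then -0.72, -0.48, -0.77 and -0.54, and -0.31 with Gapdh as the scale. They were -0.56, -0.81, -0.0033 and -0.73, then -0.43, -0.19, -0.48 and -0.25, and -0.12 with the 5 reference genes as the scale. They were -0.83, -1.07, -0.35 and -1.08, then -0.71, -0.48, -0.83 and -0.60, and -0.12 in limma on TPM with a pseudocount of 1. They were -0.90, -1.09, -0.36 and -1.09, then -0.77, -0.49, -0.84 and -0.61, and -0.13 with a pseudocount of 0.1 on TPM. They were -0.50, -0.73, -0.013 and -0.74, then -0.45, -0.21, -0.56 and -0.33, and -0.050 in limma on FPKM with a pseudocount of 1. They were -0.56, -0.75, -0.013 and -0.74, then -0.50, -0.22, -0.57 and -0.33, and -0.055 with a pseudocount of 0.1 on FPKM. With at least 10 counts in every library, a filter that removes Cd274 and Nt5e, Cmtm6 was -0.0054 in Cu-Cys against Ctrl, and it ran from -0.026 to 0.058 when each library was left out in turn.

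In Cadict against Ctrl 3 of the 7 were called, but 4 with DESeq2 size factors or its Wald test (Pvr called higher), 6 with Gapdh, 5 in limma on TPM at either pseudocount, 1 with the count filter, 1 on FPKM with a pseudocount of 1 and 7 at an adjusted p of 0.05 with any fold. In Cu-Cys against Ctrl 0 were called, but 1 with Gapdh and 4 at an adjusted p of 0.05. In Cadict against Cu-Cys 3 were called, but 2 with the Wald test or on TPM with a pseudocount of 1, 1 with the count filter, 1 on FPKM with a pseudocount of 1 and 7 at an adjusted p of 0.05. Over all genes, Cu-Cys against Ctrl had 196 calls, 536 with Gapdh, 119 with the count filter, 117 on TPM and 71 on FPKM with a pseudocount of 1. At an adjusted p of 0.05 with any fold Cu-Cys against Ctrl had 5381, and Cadict had 10484 relative to Ctrl and 10263 relative to Cu-Cys. The cause of each of these shifts beyond the change of scale, filter or threshold itself was not tested.

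Libraries with the same replicate number did not deviate together, with correlations of -0.192 to 0.161 in 9 pairs over 8551 genes, 2 of them over 0.1. Pairs from different groups with different numbers ran from -0.243 (Ctrl 3 with Cu-Cys 1) to 0.303 (Ctrl 3 with Cu-Cys 2), and a block by number does not cover these. With the replicate number as a block Cd274 had -1.73 in Cadict against Ctrl, 5685 genes were called in place of 5707 there and 183 in place of 196 in Cu-Cys against Ctrl, and the block changed no call of the 7. Depth limits Cd274 and Nt5e, which had 6 to 13 counts per Cadict library, and 3 libraries per group limit each estimate of spread. The spread was also unequal. The chi-square per degree of freedom over genes was 1.89 to 2.06 between Ctrl libraries and 2.66 to 4.53 between Cu-Cys libraries. It was 3.64 between Cadict libraries 1 and 3, but 14.7 and 23.3 in the pairs with Cadict library 2.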

Other observations

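Epithelial and stromal markers were not steady across the groups. Of 10 epithelial and colon markers, 8 were in the table and 2 were tested. Krt19, which encodes a keratin, had 19 to 33 counts in Ctrl and 119 to 131 in Cadict libraries, a log2 fold change of 3.34 (edgeR adjusted p = 4.54e-11). Cdh1, which encodes E-cadherin, had 99 to 120 counts in Ctrl, 65 to 71 in Cu-Cys and 145 to 152 in Cadict libraries, with a log2 fold change of 1.39 after Cadict (edgeR adjusted p = 3.19e-09) and -0.64 after Cu-Cys (edgeR adjusted p = 5.91e-04). Of 6 fibroblast and endothelial markers 4 were tested, and 2 rose and 1 fell after Cadict on the TMM scale (1 and 2 under library totals). Pdgfra, which encodes a growth factor receptor of mesenchymal cells, had 807 to 965 counts in Ctrl, 452 to 528 in Cu-Cys and 60 to 90 in Cadict libraries, with -2.59 (edgeR adjusted p = 1.41e-11) after Cadict. The 2 that rose had few counts. Dcn, with 10 to 17 counts in Ctrl and 11 to 15 in Cadict libraries, had 0.82 (edgeR adjusted p = 0.0188). Kdr, with 0 to 3 and 12 to 15 counts, had 3.89 (edgeR adjusted p = 3.07e-06). The part of these markers in the changes of the checkpoint ligands was not tested.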
